A study of Rattus norvegicus with 11 samples.

Results

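The 52 genes described here encode factors of translation initiation and elongation. They were taken by name: a gene belongs if at least 1 probe set has it as its single platform symbol and the symbol starts with Eif1 to Eif6, Eef1 or Eef2. The 4 measured eIF2 kinase genes, whose symbols start with Eif2ak, were left out, and Eef2k, which encodes the kinase of elongation factor eEF2, was kept. The 52 genes had 61 probe sets, out of 10411 genes with a single symbol on the array, and each gene was read from its brightest probe set, by the mean of log2 values on the 11 arrays. No measured value other than this mean level entered the rule, although the set was chosen with earlier results of these data known. Eif5 and Eif3e were not included, because each of their probe sets also has the symbol of a related sequence.

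The study measured mRNA in REF52 cells, an established line of rat embryo fibroblasts, on 11 Affymetrix arrays. All cells were grown in DMEM with 10% fetal bovine serum, starved in 0.25% serum for 48 hours and given 1 of 2 adenoviruses, a virus expressing the transcription factor E2F1 or a control virus that the labels name CMV. Media were then given back in 3 forms: low serum (deprivation), serum, or serum with LY294002, an inhibitor of phosphoinositide 3-kinase (PI3K). The groups were E2F1 in deprivation (2 arrays), control virus in deprivation (1 array), E2F1 in serum (2), control virus in serum (2), E2F1 in serum with LY294002 (2) and control virus in serum with LY294002 (2). All groups therefore share the starvation before infection and an adenovirus, and no uninfected cells are among these arrays. No label tells if the replicate arrays stem from different culture dishes. A p-value here therefore reflects the array-to-array spread alone, which may be technical.

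Initiation of translation begins when eIF4E binds the cap of an mRNA together with the scaffold eIF4G and the RNA helicase eIF4A, while eIF4E-binding proteins compete with eIF4G for eIF4E. The small ribosomal subunit, carrying eIF1, eIF1A, eIF3 and the initiator tRNA bound to eIF2, then scans for the start codon, and eIF2B recharges eIF2 with GTP after each round. During elongation eEF1A delivers aminoacyl-tRNAs and eEF2 moves the ribosome along the mRNA. PI3K signals through mTOR and phosphorylation to several of these proteins, which mRNA arrays do not measure.

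The arrays were scaled to 1 trimmed mean, and the median signal of a probe set was 173 to 208 array units. Signals below are these units, and a change is a difference of group means on the scale log2(signal + 16), where 16 is an added offset. Of 12 fibroblast markers, 8 to 10 had a signal above 500 on each array, although Pdgfra (13.7 to 202) and Thy1 (36.0 to 124) did not. Of 20 measured markers of epithelial, endothelial, blood, muscle, neural and liver cells, at most 1 was above 500 on any array. Their summed signal was 1561 to 2415 on E2F1 arrays and 1773 to 2473 on control virus arrays, beside fibroblast sums of 92090 to 118993 on E2F1 arrays and 105432 to 145125 on control virus arrays. In such bulk RNA, fewer cells of a type and less RNA per cell cannot be told apart. E2f1 itself is the symbol of no probe set, and its level was not analysed here. The 3′ to 5′ signal difference of the GAPDH and beta-actin control probe sets, a sign of RNA or label quality, was highest (0.90, log2) on the second of the E2F1 arrays with LY294002 and 0.51 to 0.76 on the 3 arrays of deprived cells, against 0.12 to 0.33 on the other 7 arrays. Its part in the results was not tested beyond the fit with it as a covariate, given in the closing section.

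The first question was how the translation factors differed between cells with E2F1 and cells with control virus, on average over the 3 media. A gene is called here when limma's adjusted p, over all 15866 probe sets tested, was under 0.05. Of the 52 genes, 8 were called (15.4%), against 16.5% of all probe sets, which include those with no or several symbols. Of all 10411 genes, read from their brightest probe set like the 52, 18.8% were called. The share of the 52 was thus a little below both backgrounds. Eif4enif1, Eif1ad, Eif1b, Eif4e3, Eif4a1, Eif4ebp3 and Eif3b rose with E2F1, which is 7 genes, where 9.23% of all probe sets were called higher. Eef2k alone fell, where 7.25% of all probe sets were called lower. The median change of the 52 genes was -0.03, beside -0.04 over all probe sets, with 25 of the genes above 0 and 27 below. At an unadjusted p under 0.05 there were 21 of the 52, beside 30.8% of all probe sets. Without both second arrays with LY294002, which are described further on, 14 genes were called, 10 higher and 4 lower, beside 20.1% of all probe sets in the same fit, and 7 of the 8 were among them. The cell type markers also moved in this average: all 12 fibroblast markers were below 0, with a median of -0.41, and Pdgfrb and Sparc were called lower (-1.90 and -0.75). Of the 20 markers of other cell types, 14 were below 0. The endothelial Kdr and Tie1 were called higher (0.63 and 0.47), with no signal above 54.0 on any array. Pecam1, the third endothelial marker, was at -0.30. The leukocyte marker Ptprc was called lower, with signals of only 3.19 to 51.9, while 1 of the 4 leukocyte markers lay above 0, at 0.38. The part of these shifts in the changes of the 52 genes was not tested.

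**Figure D1:**
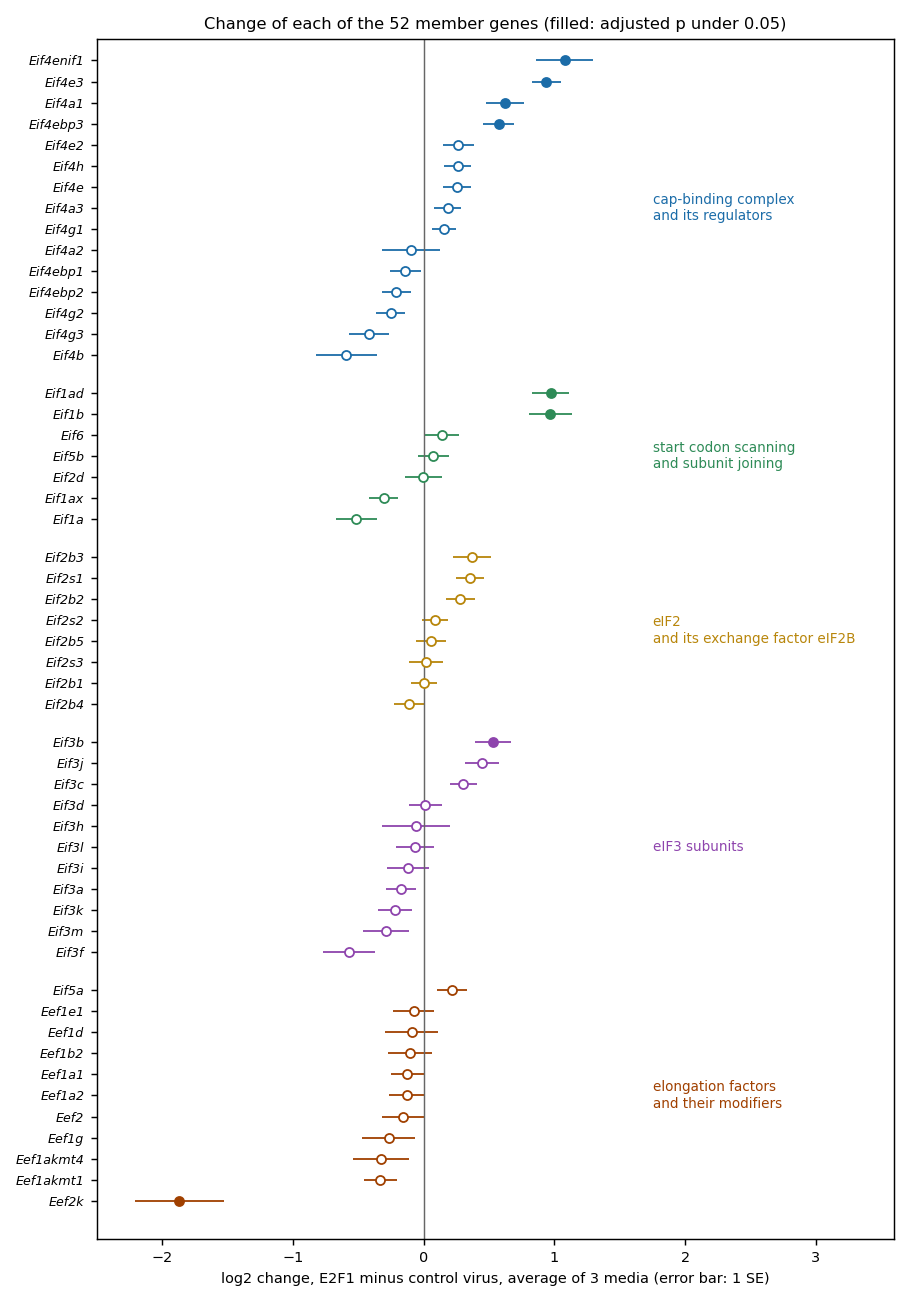
Log2 change of each of the 52 genes, E2F1 minus control virus averaged over 3 media, with bars of 1 SE, grouped by role. The 8 filled points are the called genes, 7 to the right of 0 and Eef2k at -1.87 to the left, while the other points lie within 0.6 of 0.

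Among the 15 genes of the cap-binding complex and its regulators, 4 rose and none fell, with a median change of 0.18. The counts by role here and below stand beside 9.23% of all probe sets called higher and 7.25% called lower. The groups are small, and no test over a group was run. Eif4e3 encodes a relative of eIF4E that also binds the mRNA cap. Its signals were 362 and 325 in deprived E2F1 cells, 297 and 279 in E2F1 cells in serum and 308 and 344 in E2F1 cells with LY294002, against 166 in deprived control virus cells, 186 and 180 in control virus cells in serum and 149 and 114 in control virus cells with LY294002. All 6 E2F1 arrays lay above all 5 control virus arrays, and the difference was 0.94 ± 0.11 (SE), or 1.91-fold, with an adjusted p of 0.00218.

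Eif4enif1 encodes 4E-T, an eIF4E-binding protein that carries eIF4E into the nucleus and takes part in storing repressed mRNAs. Its signals on E2F1 arrays were 1115 and 950 in deprivation, 797 and 769 in serum and 746 and 1797 with LY294002, against control virus signals of 467 in deprivation, 507 and 452 in serum and 419 and 424 with LY294002. The groups again did not overlap, with the second E2F1 array with LY294002 far above the rest. Its change was 1.08 ± 0.22, or 2.11-fold, with an adjusted p of 0.0148. Leaving out that array kept the gene among those called.

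Eif4ebp3, for an eIF4E-binding protein that blocks assembly of the cap complex, had 620 and 740 in deprivation, 550 and 472 in serum and 660 and 846 with LY294002 on E2F1 arrays, against 446, 378 and 358, and 439 and 479 on control virus arrays in the same media. The ranges touched only at 472, an E2F1 array in serum, and 479, a control virus array with LY294002. Eif4ebp3 was higher with E2F1 by 0.57 ± 0.12, or 1.49-fold, with an adjusted p of 0.0154. Its relatives did not pass the test: Eif4ebp1 changed by -0.14 (adjusted p 0.478), with 835 to 1092 on E2F1 arrays and 900 to 1169 on control virus arrays. Eif4ebp2 changed by -0.21 (adjusted p 0.253), with 576 to 845 on E2F1 arrays and 641 to 1097 on control virus arrays.

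Eif4a1 encodes the main cytoplasmic RNA helicase of the cap complex. It had 6544 and 6973 in deprived E2F1 cells, 7684 and 8210 in E2F1 cells in serum and 8202 and 12544 in E2F1 cells with LY294002, against 4050 in deprived control virus cells, 5753 and 6479 in control virus cells in serum and 5274 and 6855 in control virus cells with LY294002. Within each medium the E2F1 arrays were above the control virus arrays, while across media the ranges overlapped. The change was 0.62 ± 0.15, or 1.54-fold, with an adjusted p of 0.026. Leaving out any 1 deprived E2F1 array, any 1 serum array or the first control virus array with LY294002 brought this to between 0.0517 and 0.0742, as did centring each array on its median (0.0583). The other helicase genes did not pass. Eif4a2, a close relative of Eif4a1, changed by -0.10 (adjusted p 0.817), and Eif4a3, whose protein is a core part of the exon junction complex, by 0.18 (adjusted p 0.281).

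The central cap genes themselves were not called. Eif4e had 2191 to 2878 on E2F1 arrays and 1854 to 2233 on control virus arrays, a change of 0.25 with an adjusted p of 0.149. The scaffold genes Eif4g1 and Eif4g2 changed by 0.16 (adjusted p 0.303) and -0.25 (adjusted p 0.17). Eif4g3, another scaffold gene, had 406 to 535 on E2F1 arrays and 572 to 912 on control virus arrays. These ranges do not overlap, yet the change of -0.42 had an adjusted p of 0.11. The helicase cofactors Eif4b and Eif4h changed by -0.59 (adjusted p 0.129) and 0.26 (adjusted p 0.131). Eif4e2, another eIF4E relative, changed by 0.27 (adjusted p 0.182). The dimmer probe sets of Eif4e and Eif4g1 lay on the other side of 0 in this average, at -0.05 and -0.20. Those of Eif4g2 and Eif4b were at -0.52 and -0.09, and none of these was called.

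Of the 7 genes for start codon scanning and subunit joining, Eif1b and Eif1ad rose and none fell, with a median of 0.07. Of all probe sets 9.23% were called higher. Eif1b, a close relative of the start codon selection factor eIF1, had 1312 and 1134 in deprivation, 937 and 649 in serum and 904 and 1432 with LY294002 on E2F1 arrays, against 567, 471 and 470, and 492 and 551 on control virus arrays in the same media. The lowest E2F1 array (649) lay above the highest control virus array (567). The change was 0.97 ± 0.16, or 1.95-fold, with an adjusted p of 0.00714.

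Eif1ad, named for its likeness to eIF1A, had 1062 and 810 in deprived E2F1 cells, 816 and 803 in E2F1 cells in serum and 830 and 1128 in E2F1 cells with LY294002, against 341 in deprived control virus cells, 452 and 549 in control virus cells in serum and 592 and 492 in control virus cells with LY294002. Here too every E2F1 array was above every control virus array. The change was 0.97 ± 0.14, or 1.96-fold, with an adjusted p of 0.00419. The genes annotated as eIF1A itself, Eif1a and Eif1ax, lay on the other side of 0 without passing, at -0.51 (adjusted p 0.0634) and -0.31 (adjusted p 0.105). Both names stand for near-identical proteins, so their probe sets may share signal. Eif5b, which joins the ribosomal subunits, changed by 0.07, Eif6, which keeps the large subunit apart, by 0.14, and Eif2d by less than 0.01, with adjusted p values of 0.733, 0.531 and 0.996.

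None of the 8 genes of eIF2 and eIF2B was called, and their median change was 0.07. The nearest was Eif2s1, the eIF2 subunit that stress kinases phosphorylate, with 1786 to 2289 on E2F1 arrays and 1513 to 1801 on control virus arrays. Its change of 0.35 ± 0.11 had an adjusted p of 0.0643. Among the eIF2B subunits, which exchange the nucleotide on eIF2, the changes ran from -0.11 for Eif2b4 to 0.37 for Eif2b3 (adjusted p 0.128). Eif2b1 and Eif2b5 were at 0.00 and 0.05, and Eif2b2 at 0.28 (adjusted p 0.121). The remaining eIF2 subunits, Eif2s2 and Eif2s3, were at 0.09 and 0.01.

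Of the 11 subunits of eIF3, the large complex that joins the small ribosomal subunit to the mRNA, 1 rose and none fell, with a median of -0.07. This stands beside 9.23% of all probe sets called higher. Eif3b, a core subunit, had 1885 and 2014 in deprivation, 1694 and 1356 in serum and 1842 and 2415 with LY294002 on E2F1 arrays, against 1069, 1379 and 1620, and 1464 and 1123 on control virus arrays in the same media. In serum the arrays of the viruses were intermixed, and in the other media they were apart. The change was 0.53 ± 0.14, or 1.44-fold, with an adjusted p of 0.037. It was between 0.0611 and 0.0994 when any 1 deprived E2F1 array, any 1 control virus array in serum, the first E2F1 array in serum or the second array with LY294002 of either virus was left out. Eif3j, a loosely held subunit, lay just past the threshold at 0.45 ± 0.13 (adjusted p 0.0508), although its E2F1 arrays (1105 to 1544) were all above its control virus arrays (898 to 1068). Eif3c and Eif3a, both of the core, changed by 0.30 (adjusted p 0.0877) and -0.17 (adjusted p 0.37), and Eif3f by -0.57 (adjusted p 0.0927). The other 6 subunits ran from -0.29 for Eif3m to 0.01 for Eif3d. Members of 1 complex thus lay on both sides of 0.

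Of the 11 elongation factors and their modifiers, none rose and 1 fell, with a median of -0.13 and 10 of the 11 below 0. Over all probe sets 8845 of 15866 were below 0, and 7.25% were called lower. The media differed: in serum 7 of the 11 genes were above 0, with a median of 0.06. With LY294002 8 were below 0, and in deprivation, with 1 control virus array, 9 were. Eef2k, the kinase that inactivates eEF2, had 32.8 and 107 in deprivation, 15.9 and 25.1 in serum and 19.4 and 76.6 with LY294002 on E2F1 arrays, against 388 in deprivation, 182 and 120 in serum and 126 and 81.9 with LY294002 on control virus arrays. Within each medium the E2F1 arrays were below the control virus arrays, and across media the deprived E2F1 array at 107 overlapped the lowest control virus array. The change was -1.87 ± 0.34 with an adjusted p of 0.00938. The E2F1 signals are near the offset of 16, so the size depends on it and no fold is given. Over the alternatives tried the change ran from -2.29 to -0.90.

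Eef2k was measured by 3 further, dimmer probe sets. The next brightest fell by 1.49 ± 0.37 in the same average (adjusted p 0.0316), with 15.7 to 52.2 on E2F1 arrays and 30.3 to 223 on control virus arrays. The others changed by -0.30 (adjusted p 0.245) and 0.06 (adjusted p 0.934), with no signal above 55.1 on any array. The probe sets of Eef2k therefore differ in size and, in 1 of 3 cases, in sign.

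**Figure D2:**
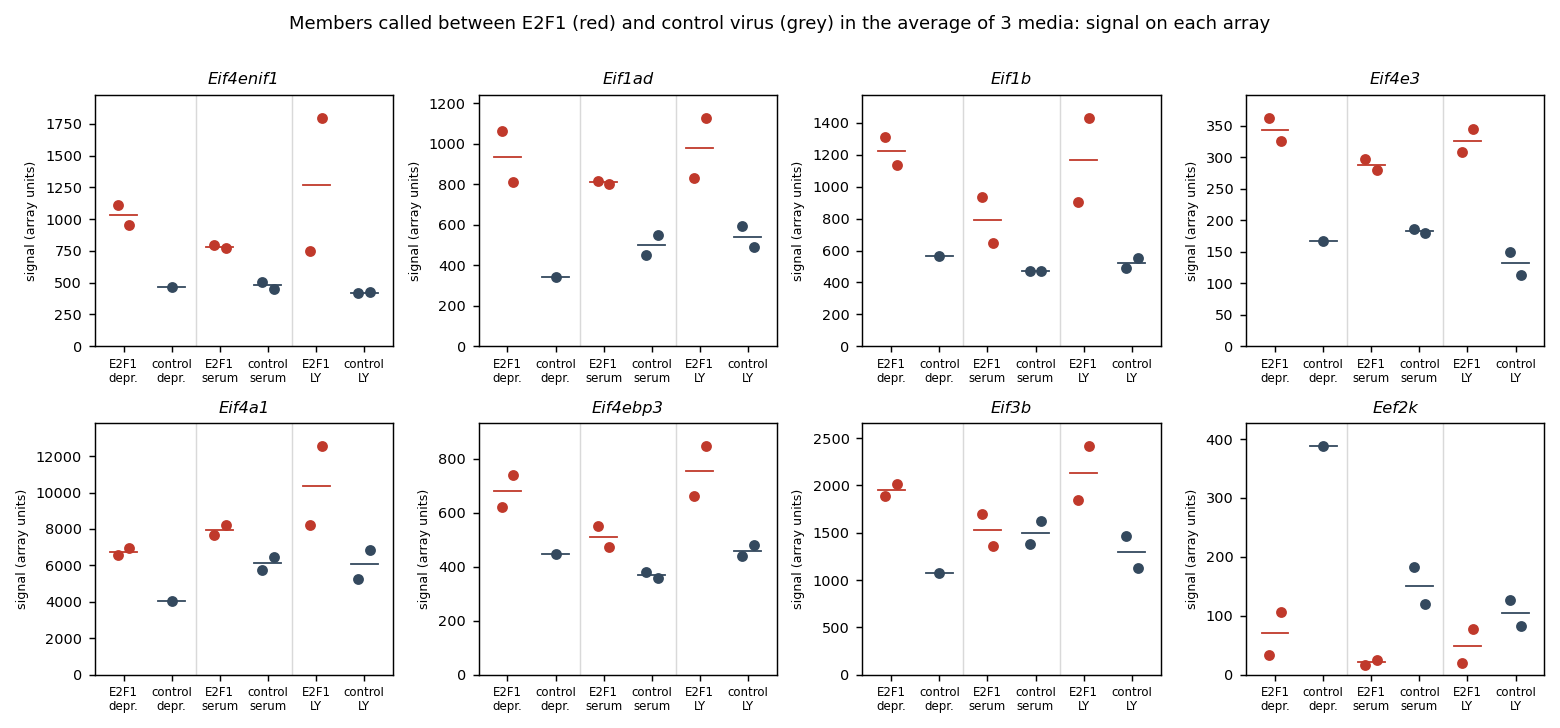
Signal in array units on each of the 11 arrays (points) and group means (lines) for the 8 called genes, E2F1 in red and control virus in grey, by medium (depr., deprivation; LY, serum with LY294002). Red points lie above grey ones in every medium for the rising genes other than Eif3b, whose points mix in serum, and below grey ones for Eef2k.

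The elongation factors proper were not called. Eef1a1, the main eEF1A gene, had 12362 and 13463 in deprived E2F1 cells, 17345 and 18071 in E2F1 cells in serum and 17896 and 25800 in E2F1 cells with LY294002, against 19873 in deprived control virus cells, 16073 and 16389 in control virus cells in serum and 18374 and 21153 in control virus cells with LY294002. On this probe set only the deprived E2F1 arrays stood below all control virus arrays, and the average change was -0.12 (adjusted p 0.574). On the dimmer probe set of Eef1a1 the E2F1 arrays in serum (10501 and 11578) were also below all control virus arrays (lowest 12577). Its change in serum was -0.28, against 0.13 on the brightest, and its average change was -0.18 (adjusted p 0.441). Eef2, the translocase and target of Eef2k, had 11273 to 23737 on E2F1 arrays and 14822 to 21864 on control virus arrays and changed by -0.16 (adjusted p 0.564). Eef1a2, the eEF1A gene of muscle and neurons, changed by -0.13 (adjusted p 0.603).

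The genes of the eEF1B exchange complex, which recharges eEF1A, were at -0.10 for Eef1b2, -0.09 for Eef1d and -0.27 for Eef1g, with adjusted p values of 0.736, 0.816 and 0.423. Eef1e1, whose protein belongs to the complex of tRNA synthetases, was at -0.08 (adjusted p 0.801), and the eEF1A methyltransferase genes Eef1akmt1 and Eef1akmt4 were both at -0.33 (adjusted p 0.114 and 0.36). Eif5a, whose protein carries hypusine and helps ribosomes through difficult peptide bonds, was the 1 gene of this group above 0, at 0.22 (adjusted p 0.246).

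The overlap of arrays was counted over the whole set. All 6 E2F1 arrays were above all 5 control virus arrays for 5 of the 52 genes (Eif4enif1, Eif1ad, Eif1b, Eif4e3 and Eif3j), beside 6.05% of all probe sets. They were below them for 1 gene, Eif4g3, beside 3.59% of all probe sets. In all that is 11.5% of the 52 genes, against 9.64% of all probe sets. Within a medium, with so few arrays, such separation was common. The viruses did not overlap for 65.4% of the 52 genes in serum, 48.1% with LY294002 and 86.5% in deprivation. The shares of all probe sets were 54.9%, 44.1% and 83.8%.

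Promoters were examined for the motif of E2F and for the E-box CACGTG, the palindromic site known for MYC, MAX and USF proteins. RefSeq promoters of assembly GRCr8, 250 bases before to 50 after the annotated start, were matched by Entrez gene ID for 47 of the 52 genes. Eif4e3, Eif4b, Eif4ebp1, Eif3h and Eef1d have no entry. The E2F words TTTCCCGC, TTTCGCGC, TTTGCCGC and TTTGGCGC, searched on both strands, were found in 1 of the 47 (2.13%), that of Eif3c, and in 0 of the 7 called genes with a promoter. They occur in 2.25% of all 27457 promoters and in 3.55% of the 8611 promoters of genes on the array. CACGTG was found in 11 of the 47 (23.4%), beside 6.65% of all promoters and 8.94% of those of genes on the array. Of the 11 genes, 6 had an average change above 0 and 5 below, and no promoter held both motifs. These are counts of letters, not of bound sites.

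The E-box was present in 3 of the 7 called genes with a promoter, the rising Eif1b and Eif3b and the falling Eef2k. Their 100 bases upstream of the start are shown, 5′ to 3′ on the gene's strand, with the E-box in capitals, because they place the same word near the starts of genes that changed in opposite directions. They lie at chr8:129081058-129081157 (plus strand) for Eif1b, chr12:19334769-19334868 (minus strand) for Eif3b and chr1:184824320-184824419 (plus strand) for Eef2k.
Eif1b: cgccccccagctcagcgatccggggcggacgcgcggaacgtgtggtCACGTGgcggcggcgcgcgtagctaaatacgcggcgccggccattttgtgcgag
Eif3b: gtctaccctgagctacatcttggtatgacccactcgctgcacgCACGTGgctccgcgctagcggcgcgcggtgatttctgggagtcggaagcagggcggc
Eef2k: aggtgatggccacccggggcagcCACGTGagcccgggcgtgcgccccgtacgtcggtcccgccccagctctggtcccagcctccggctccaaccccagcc
The first base of the word stands at -54 in Eif1b, at -57 in Eif3b and at -77 in Eef2k, counted from the annotated start.
A TOP-like start, a C followed by at least 4 of C or T as known from mRNAs of translation proteins, was found at the annotated start of 0 of the 47, beside 2.63% of all promoters. Annotated starts can differ from the true ones by enough bases to hide such a run.

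Taken medium by medium, E2F1 and control virus cells were compared with 2 arrays a side in serum and with LY294002, and 2 against 1 in deprivation. These comparisons use the same arrays as the average. In serum no gene of the 52 was called by limma, beside 0.353% of all probe sets, and 5 had an unadjusted p under 0.05, beside 15.5% of all probe sets. The smallest p values were those of Eef2k, at -2.18 ± 0.55 (adjusted p 0.125), and Eif4e3, at 0.61 ± 0.18 (adjusted p 0.167). The median change of the 52 genes was 0.02, beside 0.06 over all probe sets.

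With LY294002, 1 gene was called, beside 5.41% of all probe sets (3.78% higher) and 6.19% of all genes by their brightest probe set. Eif4e3 rose by 1.22 ± 0.18, or 2.33-fold, with an adjusted p of 0.0161 (308 and 344 with E2F1, 149 and 114 with control virus). Without the second E2F1 array with LY294002 the change was 1.15 (adjusted p 0.0574), and with both second arrays left out, 1 array against 1, it was 0.97 (adjusted p 0.0884). Leaving out any other 1 array kept the call, at 1.05 to 1.40. Without the first E2F1 array with LY294002 4 genes were called, beside 7.5% of all probe sets in that fit. The next values were 1.11 ± 0.26 for Eif1b (adjusted p 0.0533) and 1.43 ± 0.35 for Eif4enif1 (adjusted p 0.0593).

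In deprivation, 1 gene was called, beside 2.87% of all probe sets (2.19% higher) and 3.35% of all genes by their brightest probe set. Eif1ad rose by 1.40 ± 0.28, or 2.64-fold, with an adjusted p of 0.044 (1062 and 810 with E2F1, 341 with control virus). With 1 control virus array the spread of that group is taken from the others. Eif4e3 was at 0.98 ± 0.22 (adjusted p 0.0594), and Eef2k at -2.38 ± 0.67 (adjusted p 0.101). Without either deprived E2F1 array, or any 1 serum array, Eif1ad was not called (adjusted p 0.0698 to 0.192), and without any 1 array with LY294002 2 genes were called, beside 3.28% to 4.17% of all probe sets.

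The difference between media in the E2F1 effect was tested directly. Neither the effect with LY294002 minus that in serum nor the effect in deprivation minus that in serum was called for any of the 52 genes, and likewise for 0% of all probe sets. At an unadjusted p under 0.05 there were 1 and 2 of the 52, beside 6.29% and 9.72% of all probe sets. For Eif4e3 the effect with LY294002 was larger than in serum by 0.61 ± 0.25 (adjusted p 0.777), and for Eif3b by 0.69 ± 0.31 (adjusted p 0.786). In deprivation, relative to serum, Eef1a2 had the difference with the smallest p, -0.88 ± 0.35 (adjusted p 0.485), and Eif3b was at 0.84 ± 0.35 (adjusted p 0.501). Whether the calls with LY294002 and in deprivation differ from serum is therefore not shown.

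The next question was what the PI3K inhibitor did to these transcripts in serum. In E2F1 cells, LY294002 against none, 0 of the 52 genes were called, as were 0% of all probe sets, and 1 gene had an unadjusted p under 0.05, beside 11.1% of all probe sets. That was Eif4ebp3, with 660 and 846 with LY294002 against 550 and 472 without, a difference of 0.54 ± 0.19 (adjusted p 0.438). Eif2s3, the tRNA-binding subunit of eIF2, followed at 0.48 ± 0.21 (adjusted p 0.448), with 1046 and 1423 with LY294002 against 904 and 839 without. Both pairs were separate, as were those of 43.7% of all probe sets and 42.3% of the 52 genes. Without the first E2F1 array with LY294002, Eif4enif1 was called at 1.18 (adjusted p 0.0392), beside 2.05% of all probe sets in that fit. In control virus cells 0 of the 52 were called, again with 0% of all probe sets, and 2 had an unadjusted p under 0.05, beside 6.62% of all probe sets. They were Eif4e2, at -0.52 ± 0.19, and Eif4e3, at -0.44 ± 0.18, both with an adjusted p of 0.742. Eif4e2 had 1312 and 1141 with LY294002 against 1628 and 1904 without.

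The arrays within each LY294002 pair differed by more than those of other pairs. The 52 genes correlated across the 2 arrays at 0.967 with E2F1 and 0.983 with control virus, beside 0.989 to 0.993 in the other 3 pairs, as a description over genes. On both second arrays, 6 of the 52 genes (11.5%) were at least 1.5-fold above the first array of their pair, against 2.46% of all probe sets. The 6 were Eif3h, Eif4b, Eef1g, Eif3f, Eif4a2 and Eif3m. None was at least 1.5-fold lower on both, where 5.76% of all probe sets were.

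Eif3h, an eIF3 subunit, showed this most plainly, with 3182 and 6973 in E2F1 cells with LY294002 and 3119 and 6303 in control virus cells with LY294002, and with 2644 to 4081 on the other 7 arrays. Eif4b, which stimulates eIF4A, had 1182 and 2282 with E2F1 and 1505 and 2882 with control virus. Eef1g, a subunit of eEF1B, had 7741 and 14848 with E2F1 and 10958 and 16813 with control virus. The second arrays of both viruses were thus the high ones.

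The median of second minus first was 0.22 (E2F1) and 0.20 (control virus) for the 52 genes and -0.06 and -0.07 for all probe sets. The summed signal of the 52 genes was 184267 and 174650 on the second arrays with E2F1 and with control virus, and 117403 to 140615 on the other 9 arrays. The second E2F1 array had the highest 3′ to 5′ difference, and its part was not tested. The number of an array is not stated to mark a day or batch. This gap enters the spread against which LY294002 was tested.

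**Figure D3:**
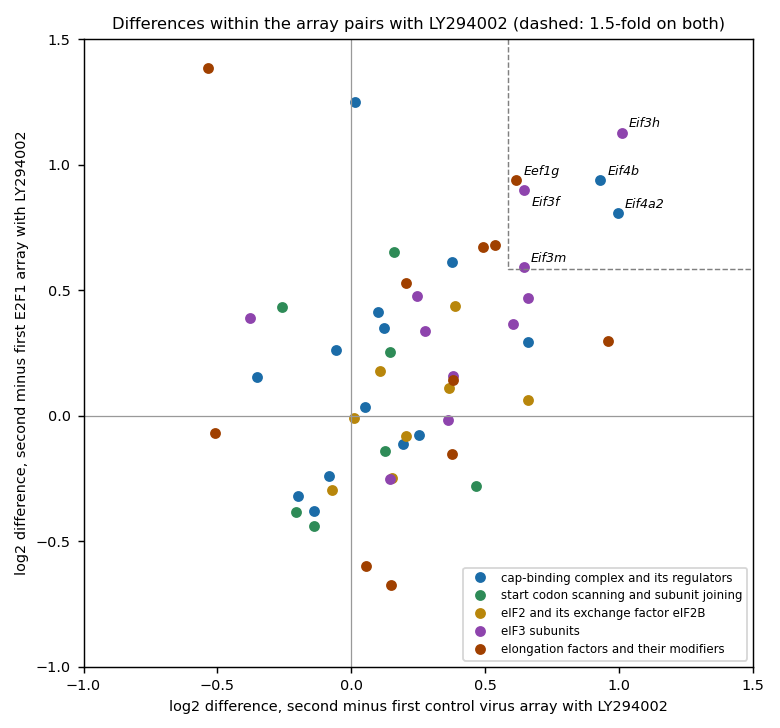
Log2 difference between the second and first array with LY294002 for each of the 52 genes, control virus on the horizontal and E2F1 on the vertical axis, coloured by role. The 6 named genes in the dashed corner were at least 1.5-fold higher on both second arrays, and no gene lay at the opposite corner beyond that limit.

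The last question was deprivation against serum. In E2F1 cells 0 of the 52 genes were called, beside 0.233% of all probe sets, and 7 had an unadjusted p under 0.05, beside 19.6% of all probe sets. The smallest p values were those of Eef1a2, at -0.70 ± 0.22 (adjusted p 0.167), and Eif2b2, at -0.54 ± 0.17 (adjusted p 0.168). Eef1a2 had 118 and 101 in deprivation against 207 and 170 in serum, and Eif2b2, a subunit of eIF2B, had 881 and 930 in deprivation against 1429 and 1225 in serum. The arrays of the media were apart for both, as for 60.1% of all probe sets and 71.2% of the 52 genes.

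In control virus cells, with 1 deprived array, 0 of the 52 were called, beside 0.24% of all probe sets, and 4 had an unadjusted p under 0.05, beside 14% of all probe sets. Eif2b2 was at -0.79 ± 0.21 (adjusted p 0.19), with 674 in deprivation against 1146 and 1215 in serum, so that it was lower in deprivation with either virus. Eif4ebp2, an eIF4E-binding protein, was at 0.76 ± 0.22 (adjusted p 0.209), with 1097 in deprivation against 644 and 641 in serum. In E2F1 cells Eif4ebp2 had 757 and 793 in deprivation against 596 and 576 in serum, a difference of 0.39 ± 0.18 (adjusted p 0.277). The median change of the 52 genes was -0.13 in E2F1 cells and -0.10 in control virus cells, beside -0.10 and 0.06 over all probe sets. The 3′ to 5′ difference was higher on the deprived arrays than on all arrays in serum without LY294002. Its part in these values was not tested beyond the fit with it as a covariate.

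**Figure D4:**
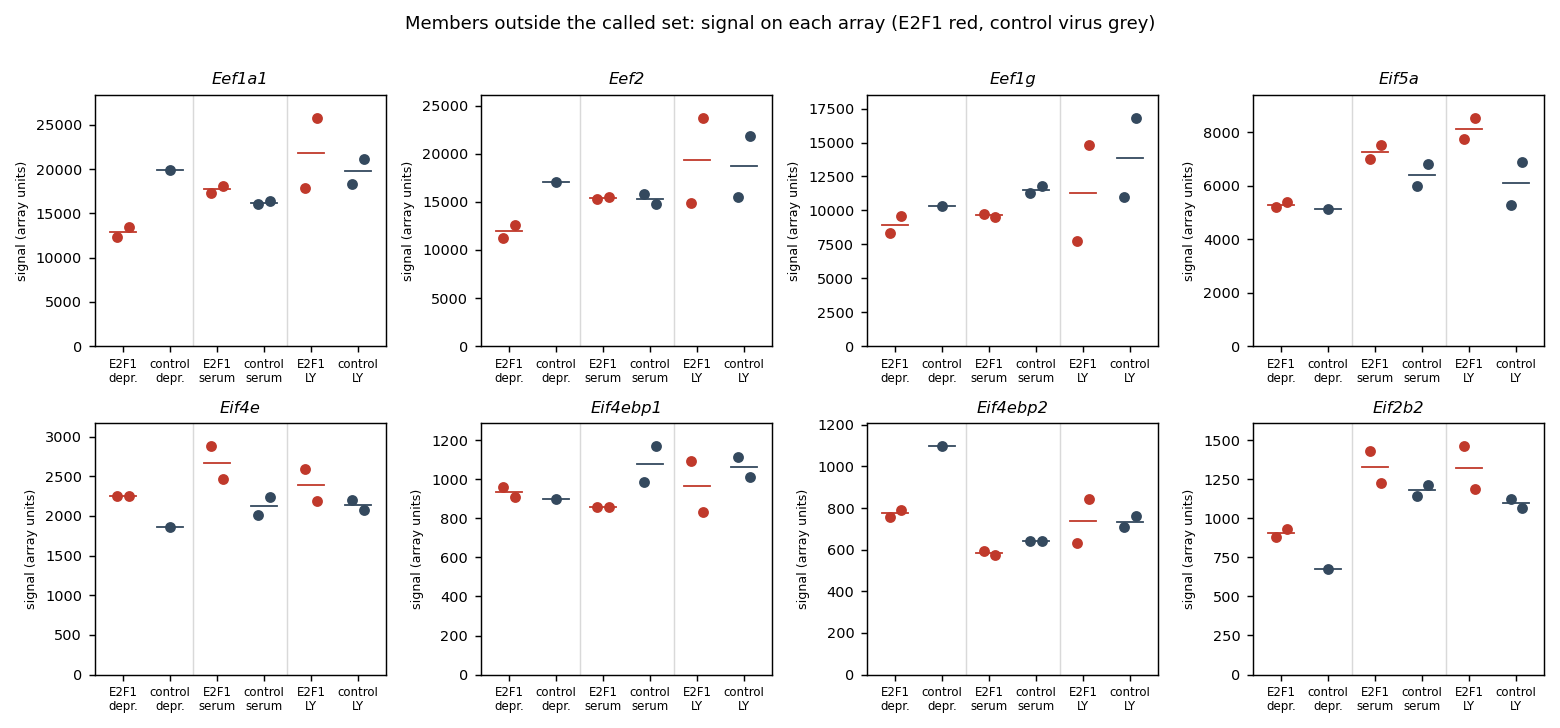
Signal in array units on each of the 11 arrays (points) and group means (lines) for 8 uncalled genes, E2F1 in red and control virus in grey, by medium. Eef1a1 and Eef2 are high on the second arrays with LY294002, Eef1a1 at 25800 with E2F1 and 21153 with control virus, and Eif2b2 is low on the 3 deprived arrays, at 674 to 930.

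Genes around these factors were read from 4 lists in the average of 3 media. In that average 9.23% of all probe sets were called higher and 7.25% lower. Between the viruses with LY294002 alone and in deprivation alone, 5.41% and 2.87% of all probe sets were called. Of 24 measured kinases and regulators of translation, none rose and 3 fell, with a median of -0.11. Pdcd4, whose protein binds and inhibits eIF4A, fell by 0.75 ± 0.17 (adjusted p 0.0211), with 114 to 263 on E2F1 arrays and 205 to 397 on control virus arrays. Mknk1, a kinase of eIF4E, fell by 0.39 ± 0.11 (adjusted p 0.0499), and Eif2ak4, the amino acid sensing kinase of eIF2, by 0.39 ± 0.10 (adjusted p 0.0349). Eif2ak4 was also lower with LY294002 taken alone, by 0.70 ± 0.16 (adjusted p 0.0478), with 120 and 124 with E2F1 against 226 and 191 with control virus.

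Of 16 mRNA binding, termination and recycling factors, 3 rose and none fell, with a median of 0.09. Abcf1, whose protein binds eIF2 and ribosomes, rose by 0.64 ± 0.12 (adjusted p 0.00933), with 1235 to 2110 on E2F1 arrays and 888 to 1080 on control virus arrays. These arrays do not overlap. Dhps, the first enzyme of hypusine formation on eIF5A, rose by 0.50 ± 0.12 (adjusted p 0.0277), and Etf1, the release factor eRF1, by 0.48 ± 0.11 (adjusted p 0.0226).

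Of 21 cytosolic tRNA synthetases and scaffold proteins, 3 rose and none fell, with a median of 0.07. Yars1, the tyrosyl-tRNA synthetase, rose by 0.95 ± 0.13 (adjusted p 0.00315), with 818 to 1094 on E2F1 arrays and 409 to 696 on control virus arrays. Gars1, for glycine, rose by 0.72 ± 0.12 (adjusted p 0.0073) and Vars1, for valine, by 1.03 ± 0.22 (adjusted p 0.0176). With LY294002 alone Yars1 and Gars1 rose by 1.04 and 1.01 (adjusted p 0.0316 and 0.0319), and in deprivation Yars1 rose by 1.30 (adjusted p 0.0392). Of 4 mitochondrial factors Mtrf1l, a release factor, rose by 1.06 ± 0.16 (adjusted p 0.00519), and by 1.66 ± 0.32 in deprivation (adjusted p 0.0421). Over the 4 lists 10 of 65 genes (15.4%) were called in the average, beside the 16.5% of all probe sets, and 0 were called in serum, with LY294002 against none, in deprivation against serum, or in the differences between media.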

How the data were processed

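Per the labels, total RNA (6 µg) was made into biotinylated cRNA and hybridised to Affymetrix RAE230A arrays. The authors deposited 1 table of linear intensity (signal) values per probe set. MAS5 and RMA appear, with no role given, in the submitters' processing notes. Each array's 2% trimmed mean was 500 and the values were not on a log scale, so they were used as given, without further scaling (array medians differed by 0.245 on the log2 scale, under the limit of 0.3).

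The 57 control probe sets were left out, which left 15866. Gene names came from GEO's platform annotation, with symbols updated through RefSeq (12783 probe sets with 1 symbol, 312 with several, 2771 with none), and none of the 52 symbols changed. limma 3.58.1 in R 4.3.3 fitted 1 mean for each of 6 groups to log2(signal + 16) of all 11 arrays, with 5 residual degrees of freedom and eBayes. All 10 contrasts were tested and p-values were adjusted by Benjamini-Hochberg over all probe sets. The fit was also run on simulated data with errors drawn independently for each array. Such data hold no part shared by same-numbered arrays, so they cannot tell how the fit deals with it. The number of arrays (1 or 2 per group) limits the precision.

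Genes named are those called, the 2 with the smallest p where none was called, and a list of central factors. The members, roles and gene lists were chosen with earlier results of these data known, so no test over a list is given. The Eif4g3, Eif3j, Eif4e2, Eif4h, Eif4a3, Eif3f, Eif2b3, Eif2b4, Eef1akmt1 and Eef1akmt4 values outside that rule, and the 6 genes high on both second LY294002 arrays, were added after the values were seen.

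The alternatives were quantile and median scaling, other offsets, a filter on dim probe sets, trended variance, a replicate block, a 3′ to 5′ covariate, the mean of all probe sets, the compared groups alone and each array left out. Deviations of same-numbered arrays correlated at -0.02 to 0.07 between groups, except 0.30 between the LY294002 groups. No label states that the numbers pair arrays, and the main fit did not pair them. The comparison of viruses with LY294002 therefore does not remove any part shared by same-numbered arrays, which stays in the spread used for all comparisons. The replicate block fits a single shift for all groups, not a shift of the LY294002 arrays alone.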

Additional observations from a re-analysis of the deposited data

Results flagged for a closer look

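The E2F1 effect on Eif2b1 and Eif2b4, the alpha and delta subunits of eIF2B, lay in opposite directions in different media. For Eif2b1 both E2F1 arrays with LY294002 (708 and 803) were above both control virus arrays (634 and 683), a change of 0.19, while in deprivation both E2F1 arrays (650 and 691) were below the 1 control virus array (847), a change of -0.33. For Eif2b4 the E2F1 arrays with LY294002 (526 and 496) were above the control virus arrays (407 and 471), a change of 0.21, and in deprivation the E2F1 arrays (362 and 437) were below the control virus array (561), a change of -0.48. None of these values was called, the difference between these media was not tested, and the side in deprivation rests on 1 control virus array. The arrays of the viruses were likewise apart for 44.1% of all probe sets with LY294002 and 83.8% in deprivation.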

How the results depend on the processing

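In the average of 3 media, 8 genes were called (15.4%), beside 16.5% of all probe sets. With a replicate block 7 were called (13.5%), beside 15.5% of all probe sets. Under the other planned settings 7 to 12 were called. The count was 7 with median centring or an offset of 1, where 15.7% and 14% of all probe sets were called. It was 12 (23.1%) with an offset of 64, trend and robust settings or the 3′ to 5′ covariate. In those fits 19.4%, 18.5% and 19.7% of all probe sets were called. With 1 array left out 6 to 10 genes were called, beside 9.71% to 19.3% of all probe sets. Without both second arrays with LY294002, an alternative chosen after seeing the data, 14 were called (10 higher, 4 lower), 7 of the 8 among them, beside 20.1% of all probe sets. Eef2k, Eif1ad, Eif1b, Eif4e3, Eif4ebp3 and Eif4enif1 were called under all 20 alternatives. Eif4a1 was not called in 8 of the 20 and Eif3b in 10, among them the replicate block for Eif3b (adjusted p 0.0565), and none of the 8 changed direction. With LY294002 the count of 1 became 2 with quantile normalization, 3 with an offset of 64, 5 without the dimmest 30% of probe sets, 3 with trend and robust settings, 2 with the mean of all probe sets, and 0 with the 3′ to 5′ covariate, without both second arrays or with the compared groups alone. It was 0 to 4 with 1 array left out, 0 without the second and 4 without the first E2F1 array with LY294002. In deprivation the count of 1 became 2 with quantile normalization, with an offset of 64, without the dimmest 30% and with trend and robust settings, 3 with the covariate or without both second arrays, and 0 with an offset of 1, the replicate block or the compared groups alone. It was 0 to 2 with 1 array left out, 0 without any 1 serum array or deprived E2F1 array and 2 without any 1 array with LY294002. For LY294002 against none in E2F1 cells it was 0 to 1, as Eif4enif1 was called at 1.18 (adjusted p 0.0392) without the first E2F1 array with LY294002. The other comparisons had 0 throughout. The replicate block changed no other call. With LY294002, 5.41% of all probe sets were called in the main fit. That share was 5.72% with quantile normalization, 7.86% with an offset of 64 and 7.46% with trend and robust settings. It was 1.8% with the covariate and 0% with the compared groups alone. In deprivation the shares were, in the same order, 2.87%, 3.25%, 5.09%, 4.39%, 6.08% and 0%. There the share was 1.2% with an offset of 1 and 0.826% with the replicate block. Comparisons with the deprived control virus array cannot be made without it. Fewer arrays change the residual degrees of freedom, and otherwise the cause of these changes was not tested. Signals near background limit what can be said of Eef2k, whose dimmest probe sets differ from the brightest in size and 1 of them in sign.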
